A study of Mus musculus with 6 samples.

Results

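Hypoxia response and glycolysis genes were followed in neuralized embryoid bodies, which are floating aggregates of mouse embryonic stem cells steered towards neural fates. The list held 34 genes, and 32 of them were found through a platform annotation that pairs a probe set with that gene symbol alone, out of 18193 genes tested in the whole table. Of the 32, 31 entered the test, 14 of them glycolytic enzymes and 17 other hypoxia genes. Gapdh was read only by control probe sets and is given as values without a test. Gpi1 and Eno1 had no probe set paired with that symbol alone, and enter only the counts of promoter windows. Where a gene had several probe sets, the brightest by mean log2 level over the 6 arrays stood for it, a choice that made no use of the treatment.

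Cells sense low oxygen through HIF-1, a pair of transcription factors whose alpha subunit (Hif1a) is hydroxylated by the Egln enzymes and then destroyed as long as oxygen is present. When oxygen falls, the stabilised factor binds short hypoxia response elements near its target genes. The targets include glucose transporters, nearly all enzymes of glycolysis, the exporter of lactate, regulators of mitochondrial fuel use, the angiogenic factor Vegfa and enzymes of collagen maturation. Pluripotent and early neural cells are known for a high rate of glycolysis, which is tuned down as neurons mature.

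There were 2 groups with 3 cultures each. RA-Ag1.3 cultures received 500 nM all-trans retinoic acid together with 50 nM Ag1.3, an agonist of the hedgehog transducer Smoothened, for 3 days after 2 days in suspension. RA cultures were handled alike but had retinoic acid without the agonist. All 6 cultures came from a stem cell line that carries FLAG-tagged Gli1, a hedgehog pathway transcription factor, driven constitutively by the Rosa26 promoter, so the RA cultures also held this transgene. The replicate numbers mark cultures grown side by side, which gives 3 pairs, and oxygen was not part of the labelled treatment.

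Median array intensities lay between 48.79 and 52.71, and hybridization spikes read 0.19 higher on the log2 scale on RA-Ag1.3 arrays. The labelled neural progenitor state was checked with 7 markers, all above the range of unspiked Trp control probe sets (4.02 to 20.71) on all 6 arrays. Sox2 read 2661, 2462 and 2636 in RA-Ag1.3 cultures, against 2900, 2709 and 2699 in RA cultures, while Pax6 read 558, 504 and 243 in RA-Ag1.3 cultures, against 784, 717 and 345 in RA cultures. Pax6, Nes and Sox3 were lowest in pair 3 in both groups and passed limma's F-test between pairs (adjusted p between 0.0253 and 0.0334). The arrays read whole cultures, so fewer cells of a type and less RNA per cell cannot be told apart. Whether the 3 pairs came from separate thaws or passages is not given. The p-values for Ag1.3 weigh the change against its variation over these 3 pairs of cultures and that of all genes. In limma's eBayes step each gene's variation is drawn towards the level over all genes, which counted for 3.49 prior degrees of freedom.

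Of the 31 members tested, 1 rose with Ag1.3 and 0 fell in limma's test at an adjusted p under 0.05, where 1.39% of all genes passed in either direction, 1.07% higher and 0.313% lower. The riser was Slc16a3, the lactate exporter. At an unadjusted limma p under 0.05, 6 members were higher and 3 were lower, against 7.24% and 7.68% of all genes. The 3 RA-Ag1.3 arrays read above all 3 RA arrays for 5 members, namely Slc16a3, Aldoc, Vegfa, Bnip3 and P4ha1, and below all of them for 1, Ldhb, against 6.45% and 5.35% of all genes. With arrays scaled to equal hybridization spikes, 1 member passed as higher and 3 as lower, and over all genes 287 passed as higher and 1399 as lower in place of 195 and 57.

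Slc16a3 encodes MCT4, a membrane carrier that moves lactate out of glycolytic cells, and it is a known HIF-1 target in human cells. Its intensity was 124, 159 and 161 in RA-Ag1.3 cultures, against 80.2, 96.4 and 103 in RA cultures. The lowest RA-Ag1.3 array stood above the highest RA array. The means were 148 ± 21.0 in RA-Ag1.3 cultures and 93.2 ± 11.8 in RA cultures (SD, n = 3 each), a 1.5-fold increase on the log2(intensity + 16) scale, with a log2 fold change of 0.59 (SE 0.07, 95% CI 0.40 to 0.77, adjusted p = 0.0364). All 3 pairs gave similar differences of 0.54, 0.64 and 0.57 on the log2 scale. It passed in 7 of 12 alternatives and had an adjusted p of 0.145 with a pseudocount of 1, 0.214 without the replicate block, and 0.207, 0.204 or 0.101 without pair 1, 2 or 3.

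The windows around the annotated starts show the letters that HIF-1 is known to bind, ACGTG and GCGTG, searched on both strands (as CACGT and CACGC on the other), where ACGTG and CACGT overlap within CACGTG. The 5 windows shown belong to the gene that rose, to Bnip3 as a classic target with higher values, to the lactate dehydrogenase pair, whose values lay on opposite sides of 0, and to Pdk1 as a classic target with lower values. They are RefSeq sequences of GRCm38.p6, 5′ to 3′ on the gene's strand, from 250 bases before to 50 bases after the start, with motif letters in capitals.
Slc16a3: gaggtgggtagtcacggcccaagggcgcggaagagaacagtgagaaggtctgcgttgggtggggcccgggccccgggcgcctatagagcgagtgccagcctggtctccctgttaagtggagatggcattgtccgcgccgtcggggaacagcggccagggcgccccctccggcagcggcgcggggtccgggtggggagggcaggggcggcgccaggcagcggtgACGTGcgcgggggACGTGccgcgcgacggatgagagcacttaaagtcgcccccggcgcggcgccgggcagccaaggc
Bnip3: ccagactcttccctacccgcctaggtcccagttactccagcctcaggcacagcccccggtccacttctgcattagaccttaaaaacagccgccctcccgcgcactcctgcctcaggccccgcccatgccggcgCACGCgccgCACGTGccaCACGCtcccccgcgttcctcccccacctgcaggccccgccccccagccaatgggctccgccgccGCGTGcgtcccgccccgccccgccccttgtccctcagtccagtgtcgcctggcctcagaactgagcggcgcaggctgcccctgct
Ldha: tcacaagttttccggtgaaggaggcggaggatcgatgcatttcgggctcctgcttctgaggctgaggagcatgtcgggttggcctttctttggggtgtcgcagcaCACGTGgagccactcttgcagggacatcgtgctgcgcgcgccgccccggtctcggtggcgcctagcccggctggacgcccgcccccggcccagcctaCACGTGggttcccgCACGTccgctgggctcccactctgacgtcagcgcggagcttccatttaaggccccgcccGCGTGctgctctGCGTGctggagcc
Ldhb: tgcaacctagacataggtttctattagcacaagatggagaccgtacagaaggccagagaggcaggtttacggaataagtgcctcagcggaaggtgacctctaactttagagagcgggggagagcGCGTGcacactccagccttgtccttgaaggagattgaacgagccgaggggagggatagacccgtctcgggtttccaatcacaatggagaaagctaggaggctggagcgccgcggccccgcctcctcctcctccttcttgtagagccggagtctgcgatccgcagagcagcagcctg
Pdk1: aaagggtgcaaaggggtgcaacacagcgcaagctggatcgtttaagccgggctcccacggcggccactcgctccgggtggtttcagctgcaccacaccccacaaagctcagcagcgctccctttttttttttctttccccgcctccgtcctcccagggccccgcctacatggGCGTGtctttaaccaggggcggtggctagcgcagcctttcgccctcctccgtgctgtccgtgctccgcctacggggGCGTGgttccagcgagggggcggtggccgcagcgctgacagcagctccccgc

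The Slc16a3 window lies at chr11:120948817-120949116 on the plus strand and holds 2 matches. The Bnip3 window at chr7:138909457-138909756 on the minus strand holds 5 matches in 4 capital runs. Ldha has 2 annotated starts, and the window of the upstream one, at chr7:46845554-46845853 on the plus strand, holds 7 matches in 5 runs, while the Ldhb window at chr6:142507908-142508207 on the minus strand holds 1. The window of the upstream Pdk1 start, at chr2:71872974-71873273 on the plus strand, holds 2. The RefSeq table matched 32 of the 34 listed genes by symbol, all but Slc2a3 and Ndrg1, and so included Gapdh, Gpi1 and Eno1. Of their 46 windows 37 (80.4%) held a match, against 14380 of all 32851 windows (43.8%), and 29 of the 32 genes had a window with one. Glycolytic enzymes had a match in 21 of 28 windows and the other hypoxia genes in 16 of 18. Base composition differed too, with a median of 58.2% G and C in the enzymes' windows, 67.5% in those of the other hypoxia genes and 52.7% in all windows, and its part in the share was not tested. A match is a stretch of letters in the window and was not measured as binding here.

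Glucose enters cells through Slc2a1 (GLUT1) and Slc2a3 (GLUT3), of which GLUT3 is known from pluripotent cells and neurons. Slc2a1 read 2580, 2628 and 2428 in RA-Ag1.3 cultures, against 2787, 2725 and 2234 in RA cultures. The groups overlapped, and the log2 fold change was -0.01 with a 95% CI of -0.22 to 0.19. Slc2a3 read 1443, 2331 and 3467 in RA-Ag1.3 cultures, against 2259, 3293 and 3990 in RA cultures. Within each pair the RA-Ag1.3 array was the lower one, while the groups as a whole overlapped. Its log2 fold change was -0.45 (SE 0.11, 95% CI -0.71 to -0.18, adjusted p = 0.141), and it passed in 5 of 12 alternatives, with adjusted p between 0.00749 and 0.859.

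**Figure D1:**
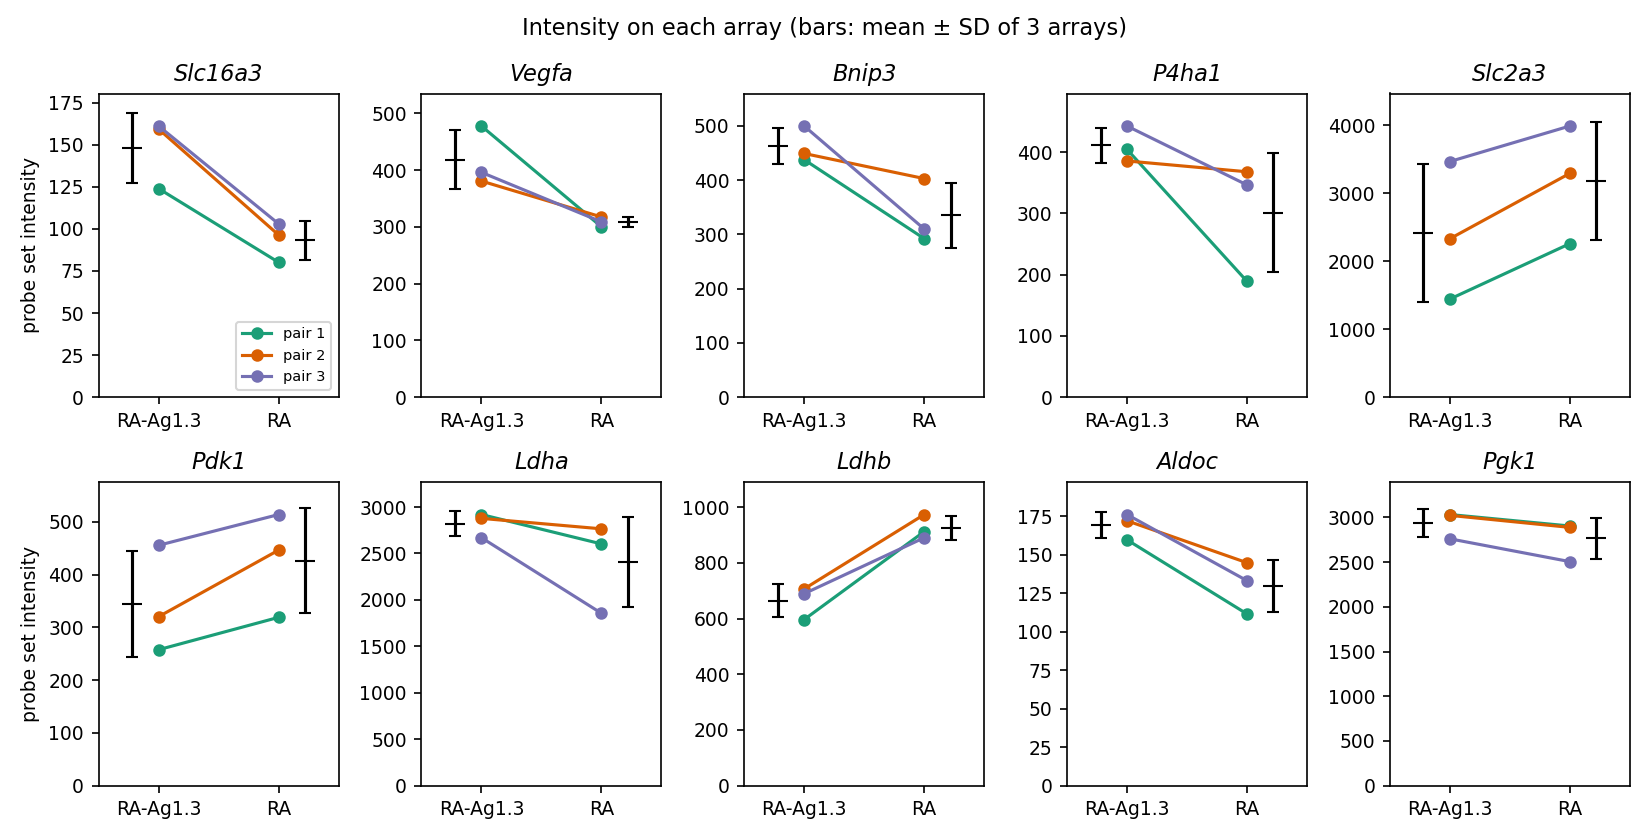
Probe set intensity (linear axis from 0) of 10 members on each array, RA-Ag1.3 left and RA right, with lines joining the cultures of a pair and bars for the mean ± SD of 3 arrays. All Slc16a3 lines slope the same way, with RA-Ag1.3 arrays at 124 to 161 and RA arrays at 80.2 to 103, whereas Pgk1 lines are nearly level.

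The first steps of glycolysis trap and split glucose. Hk1 and Hk2, the hexokinases that phosphorylate glucose, had log2 fold changes of 0.12 and 0.04, neither past the threshold. The phosphofructokinase subunits Pfkl, Pfkm and Pfkp, of the enzyme that commits sugar to the pathway, had 0.10, 0.06 and -0.03. For the chosen probe sets of these 5 genes the 95% CIs all included 0 and stayed between -0.24 and 0.33. They do not show that the genes were constant, and a dimmer Pfkp probe set gave -0.41. Hk2 was nearly equal on the RA arrays, at 468, 473 and 469.6, and spread on the RA-Ag1.3 arrays, at 497, 407 and 558.

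Aldolase cleaves the phosphorylated sugar. Aldoa, the common form, read 1783, 1929 and 2164 in RA-Ag1.3 cultures, against 1873, 2094 and 2069 in RA cultures, with overlapping groups and a log2 fold change of -0.04 (95% CI -0.24 to 0.16). Aldoc, the form known from brain, read 159.6, 172 and 176 in RA-Ag1.3 cultures, against 111, 145 and 133 in RA cultures. For Aldoc all RA-Ag1.3 arrays were above all RA arrays, with a log2 fold change of 0.35 (SE 0.08, 95% CI 0.14 to 0.56, adjusted p = 0.141) that did not pass over all genes. Aldoc passed in 2 of 12 alternatives. The change of Aldoa minus that of Aldoc was -0.53, -0.34 and -0.30 in the 3 pairs, a description without a test, since 3 pairs allow no exact two-sided p below 0.25. Tpi1, which interconverts the 2 products, read 1779, 1605 and 1457 in RA-Ag1.3 cultures, against 1545, 1492 and 1206 in RA cultures, higher with Ag1.3 within each pair, at a log2 fold change of 0.19 (adjusted p = 0.341).

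The later steps of the pathway were mostly read by bright probe sets. Pgk1, the first ATP-forming enzyme, read 3032, 3023 and 2761 in RA-Ag1.3 cultures, against 2904, 2889 and 2506 in RA cultures, and its log2 fold change of 0.09 had a 95% CI of -0.10 to 0.27. Pgam1, the mutase that follows, had -0.02 (-0.20 to 0.16), with all 6 arrays between 2343 and 2469. Pkm, the pyruvate kinase of the last step, had -0.01 (-0.20 to 0.17). The groups overlapped for these 3 genes. Eno2, the enolase of neurons, read 53.7, 60.1 and 57.9 in RA-Ag1.3 cultures, against 37.0, 41.5 and 74.4 in RA cultures, and RA replicate 3 alone was the highest array. Its log2 fold change was 0.17 with a wide 95% CI of -0.22 to 0.56, and it was 0.40 without pair 3. The 3 control probe sets for Gapdh gave mean log2 differences of -0.01, -0.06 and -0.04 over the pairs, and the set at the 3' end read 5580, 5507 and 5459 in RA-Ag1.3 cultures, against 5628, 5583 and 5488 in RA cultures.

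Lactate dehydrogenase swaps pyruvate and lactate, and its subunits had values on opposite sides of 0. Ldha, the subunit that favours lactate and a known HIF-1 target, read 2920, 2878 and 2670 in RA-Ag1.3 cultures, against 2603, 2766 and 1856 in RA cultures. The RA arrays spread more, RA replicate 3 being far below the others, and the groups overlapped (log2 fold change 0.25, 95% CI -0.03 to 0.53, adjusted p = 0.388). The Ldha change was 0.11 without pair 3. Ldhb, the subunit of oxidative tissues, read 596, 706 and 689 in RA-Ag1.3 cultures, against 912, 973 and 890.0 in RA cultures. All RA-Ag1.3 arrays lay below all RA arrays, with means of 664 ± 59.2 in RA-Ag1.3 cultures and 925 ± 43.1 in RA cultures (SD, n = 3 each). The log2 fold change of Ldhb was -0.47 (SE 0.08, 95% CI -0.68 to -0.26), with the lowest p of the glycolytic enzymes, and it missed the threshold over all genes (adjusted p = 0.0756). It passed in 4 of 12 alternatives and was negative in all 12. Within pairs, the change of Ldha minus that of Ldhb was 0.76, 0.51 and 0.88 on the log2 scale, a mean of 0.72 ± 0.19 (SD, n = 3 pairs), above 0 in 3 of 3 pairs and without a test.

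The regulators at the branch points did not pass in the reported fit. Pfkfb3, whose product makes the activator of phosphofructokinase, read 77.1, 66.8 and 49.0 in RA-Ag1.3 cultures, against 54.5, 57.2 and 42.0 in RA cultures. It was higher with Ag1.3 within each pair (log2 fold change 0.25, 95% CI 0.03 to 0.46, adjusted p = 0.27), although the groups overlapped. Pdk1 is a kinase that switches off the pyruvate dehydrogenase complex. It read 258, 320.4 and 456 in RA-Ag1.3 cultures, against 319, 447 and 514 in RA cultures. Here each RA-Ag1.3 array was below its partner, and the groups overlapped (log2 fold change -0.31, 95% CI -0.53 to -0.09, adjusted p = 0.202). Pdk1 passed in 1 of 12 alternatives, with equal hybridization spikes (adjusted p = 0.0148 in limma's test), and Pfkfb3 in 0.

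Among classic HIF-1 targets outside glycolysis, Vegfa, the main growth factor for blood vessels, read 478, 381 and 396 in RA-Ag1.3 cultures, against 300.2, 317 and 309 in RA cultures. All RA-Ag1.3 arrays exceeded all RA arrays, with a log2 fold change of 0.41 (SE 0.10, 95% CI 0.16 to 0.67, adjusted p = 0.153). Bnip3, which marks mitochondria for removal, read 438, 449 and 499.7 in RA-Ag1.3 cultures, against 292, 403 and 309.9 in RA cultures. The groups did not overlap, RA replicate 2 being the nearest to the RA-Ag1.3 arrays (log2 fold change 0.46, SE 0.12, 95% CI 0.16 to 0.75, adjusted p = 0.166). Neither gene passed over all genes, and they passed in 3 and 2 of 12 alternatives.

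Ddit4, an inhibitor of the growth kinase mTORC1, read 660.2, 413 and 486 in RA-Ag1.3 cultures, against 319.7, 431 and 407 in RA cultures. The groups overlapped, and RA-Ag1.3 replicate 1 alone was far above the rest. Its log2 fold change of 0.40 (95% CI -0.11 to 0.91, adjusted p = 0.451) was 0.09 without pair 1. Adm, the vasodilator adrenomedullin, was the dimmest member, at or below the highest Trp control on 2 of 6 arrays. Ndrg1, Ankrd37 and Car9, genes much used as hypoxia reporters, were dim as well, at 29.9 to 74.3 on all arrays, and had log2 fold changes of 0.14, 0.19 and -0.0036 with overlapping groups. The 95% CI of Car9 was -0.21 to 0.21.

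P4ha1 and P4ha2 encode the catalytic subunits of the enzyme that hydroxylates collagen. P4ha1 read 404, 385 and 442 in RA-Ag1.3 cultures, against 189, 368 and 346 in RA cultures. The groups did not overlap, but RA replicate 1 lay far below the other arrays, and the log2 fold change of 0.48 (95% CI 0.01 to 0.95, adjusted p = 0.327) was 0.20 without pair 1. P4ha2 read 86.8, 98.7 and 179.6 in RA-Ag1.3 cultures, against 96.2, 116 and 182 in RA cultures. Its partners in a pair were close to each other, with a log2 fold change of -0.12 (95% CI -0.31 to 0.08), and both arrays of pair 3 stood above the other 4.

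Hif1a and its hydroxylases showed no change past the threshold. Hif1a read 1458, 1530 and 1655 in RA-Ag1.3 cultures, against 1393, 1441 and 1596 in RA cultures, with overlapping groups and a log2 fold change of 0.07 (95% CI -0.11 to 0.25). Its hydroxylases Egln1 and Egln3 had -0.02 (-0.23 to 0.19) and 0.0029 (-0.27 to 0.28). HIF-1 alpha is controlled mainly through its protein, which the arrays do not read.

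**Figure D2:**
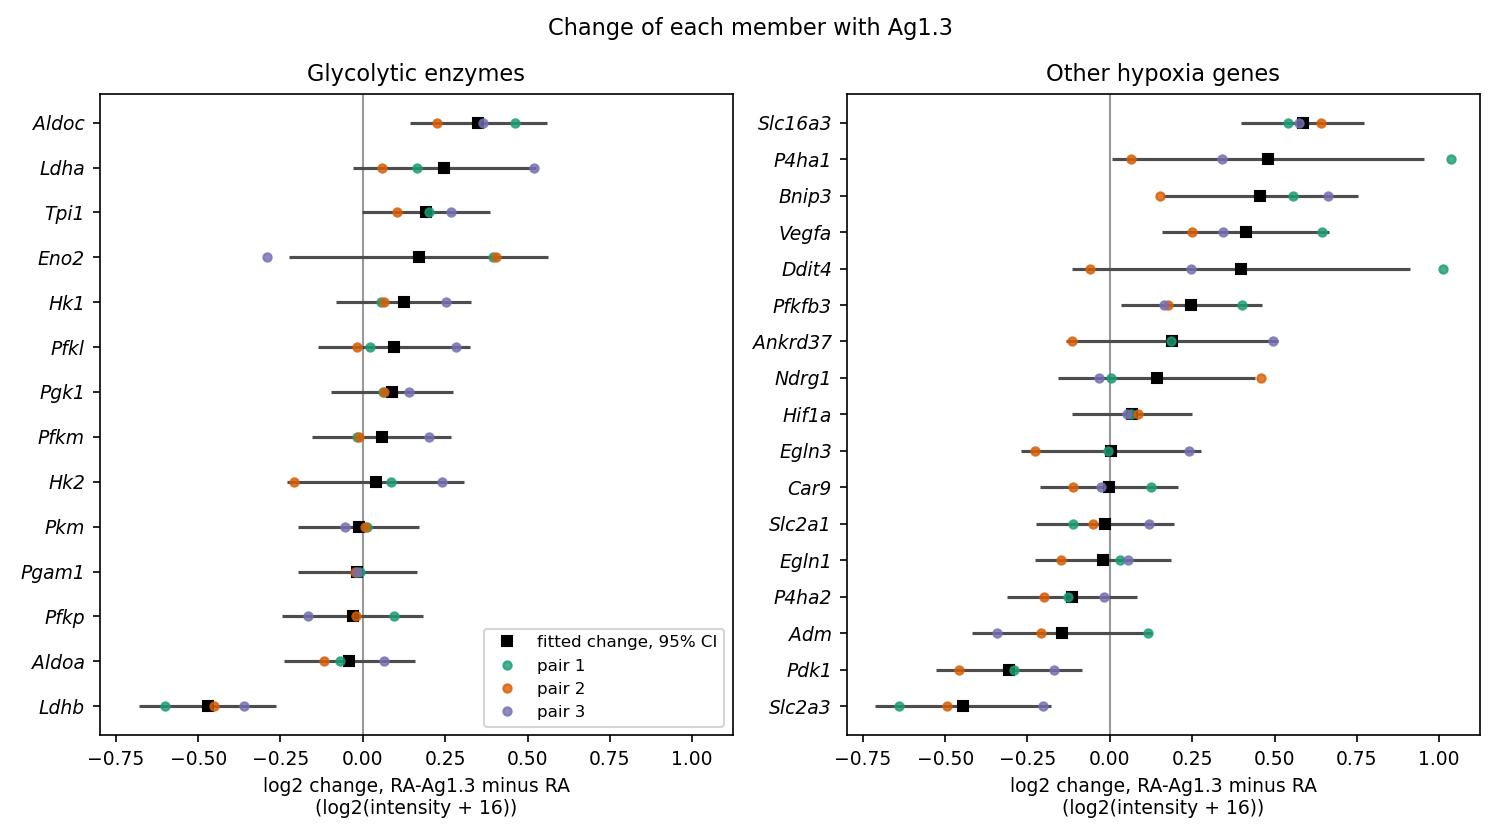
Log2 change of each tested member, RA-Ag1.3 minus RA, on the log2(intensity + 16) scale: black squares and bars are the fitted change with its 95% CI, coloured points the 3 pairs. The bar of Slc16a3 runs from 0.40 to 0.77, and most glycolytic enzymes have bars across 0, with Aldoc above it and Ldhb below it.

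Glycolytic enzymes and the other hypoxia genes were then set side by side. Of the 14 enzymes 0 passed, with 2 at an unadjusted limma p under 0.05 (1 higher, Aldoc, and 1 lower, Ldhb), and of the 17 other genes 1 rose, with 7 at that unadjusted level (5 higher and 2 lower). Over all genes 1.07% rose and 0.313% fell, and 7.24% were higher and 7.68% lower at the unadjusted level. The median log2 fold change was 0.07 in both sets of genes, against -0.01 over all genes tested. Without pair 3 the medians were 0.02 for the enzymes and 0.04 for the others, and within pair 2 they were -0.0034 and -0.06, against -0.04 over all genes in that pair. The difference of the medians, enzymes minus the others, was 0.01, and it was -0.06, 0.06 and 0.05 in the 3 pairs, so it was smaller than its spread between pairs (SD 0.06). Scaling to equal hybridization spikes moved the median of all genes to -0.16 and turned 8 members with positive values negative, and relative to that median the enzymes then stood at 0.05 and the other hypoxia genes at 0.03.

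The spread of the changes within each group of genes is given as a description. The interquartile range of the enzymes ran from -0.02 to 0.16, that of the other hypoxia genes from -0.02 to 0.40, and that of all genes from -0.10 to 0.09. The median absolute log2 fold change was 0.09 for enzymes, 0.19 for the other hypoxia genes and 0.10 for all genes. Brightness also differed, with 6 of the 14 enzymes and 3 of the 17 others at a mean intensity above 1000. Those 9 bright members had a median absolute change of 0.07, against 0.06 for the 1015 genes of that brightness, and the part of brightness in the difference was not tested.

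Further probe sets gave a second reading for 19 of the members, 38 probe sets in all. For members with an unadjusted limma p under 0.05 there were 13 further probe sets, of which 12 had the sign of the chosen one and 7 of those an unadjusted p under 0.05. All 7 belonged to the lower members Ldhb, Slc2a3 and Pdk1. The further sets of the higher members Aldoc, Vegfa, Pfkfb3 and P4ha1 had unadjusted limma p of 0.0756, 0.622, 0.286 and 0.142. That of Aldoc read 3.62 to 20.5, below the highest Trp control, and Bnip3 had no further set. The 3 other Ldhb sets gave -0.38, -0.38 and -0.36 on the log2 scale, close to the chosen set. For Slc2a3 they gave -0.48, -0.85 and -0.86. One of them, which read 104, 124 and 206 in RA-Ag1.3 cultures, against 185, 271 and 359.9 in RA cultures, was the 1 probe set of the members that passed when all 45037 probe sets were tested (adjusted p = 0.0439). Slc16a3 has a single probe set, with an adjusted p of 0.0679 in that larger test.

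Not all readings matched. The second Vegfa probe set read 115, 121 and 142 in RA-Ag1.3 cultures, against 114, 124 and 126 in RA cultures, a log2 fold change of 0.04 against 0.41 for the chosen one. The dimmer P4ha1 set gave 0.14. The 3 further Pdk1 sets gave -0.29, 0.06 and -0.08, and the dimmest Pfkp set gave -0.41 against -0.03. Both further Tpi1 sets gave 0.22. Members outside the unadjusted threshold also had further sets with the opposite sign. For Ndrg1, a dim set at 19.3 to 49.1 gave -0.23 against 0.14, while its other further sets gave 0.11, 0.11 and 0.15. For Hif1a, a further set gave -0.10 against 0.07, and the others gave 0.09 and 0.02. The opposite sets of Aldoa, Slc2a1 and Egln1 lay between 0.0071 and 0.03, where the chosen sets gave -0.04, -0.01 and -0.02. A probe set reads mainly the 3' end of a transcript form, and which forms each set reads was not analysed here.

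**Figure D3:**
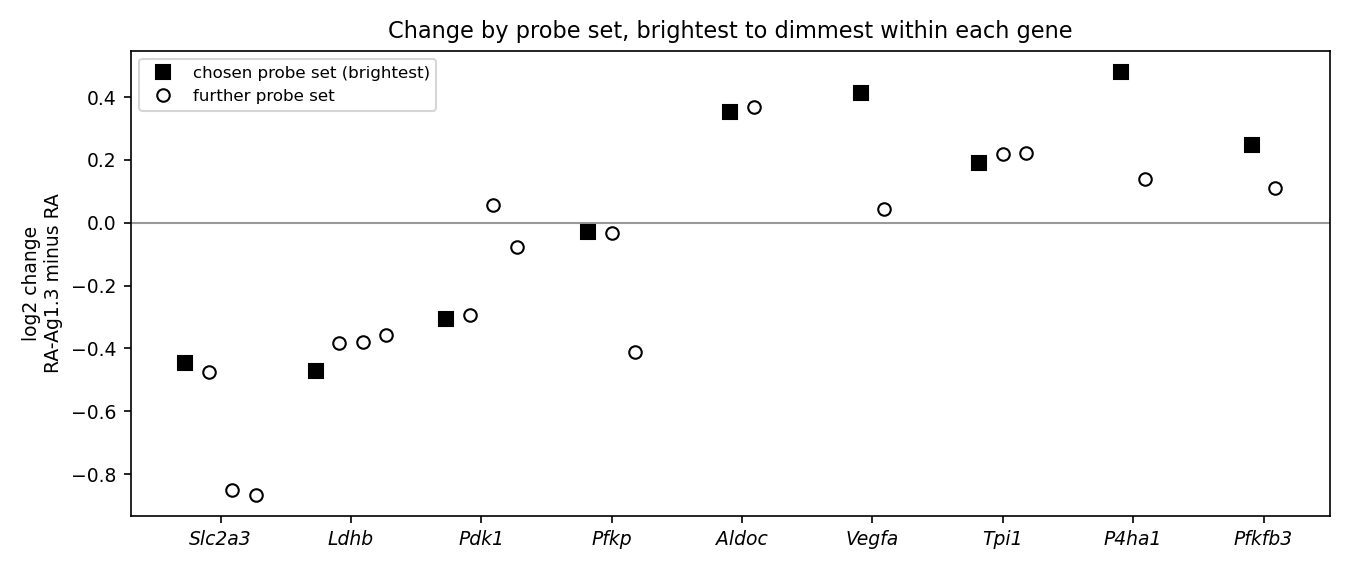
Log2 change, RA-Ag1.3 minus RA, of every single-symbol probe set of 9 members, ordered from brightest (black square, the chosen set) to dimmest (open circles) within each gene. All 4 Slc2a3 sets and all 4 Ldhb sets lie below 0, whereas the second Vegfa set lies at 0.04.

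Levels also differed between the culture pairs, whatever the treatment. In limma's F-test of the pair term 3 members passed, P4ha2 (adjusted p = 0.0337), Pfkp (adjusted p = 0.035) and Slc2a3 (adjusted p = 0.0457), against 2.33% of all genes. Both arrays of pair 3 were the highest for all of these, with Slc2a3 at 3467 (RA-Ag1.3) and 3990 (RA) there, against 1443 (RA-Ag1.3) and 2259 (RA) in pair 1. Pfkp read 95.8, 123 and 182 in RA-Ag1.3 cultures, against 88.7, 125 and 206 in RA cultures, so that pair 1 was lowest in both groups. The range of pair means on the log2 scale was 1.04 for Slc2a3, 0.95 for Pfkp and 0.87 for P4ha2, wider than their changes with Ag1.3. Pdk1 had the next lowest p, with a range of 0.72 and adjusted p = 0.0649. Over the 31 members the median range between pairs was 0.22, and over all genes 0.21. The count was 0 without pair 1 and 0 without pair 3 (5 and 4 members at an unadjusted p under 0.05 in limma's test), and 4 without pair 2.

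Markers of pluripotent cells were set beside these members, by pair and by treatment. Of 8 such markers 1 fell with Ag1.3, Pou5f1 (log2 fold change -0.68, adjusted p = 0.0423), against 0.313% of all genes. All 8 markers had values below 0, with a median log2 fold change of -0.65. Their summed intensity was 3186, 4678 and 6334 in RA-Ag1.3 cultures, against 5021, 7284 and 8244 in RA cultures, highest in pair 3 within each group and lower with Ag1.3 within each pair, as for Slc2a3 and Pdk1. None of the 8 was at or below the highest Trp control on all arrays. The summed level of endoderm markers, of which 2 of 8 fell (Sox17 and Krt8), was also highest in pair 3 within each group, with sums of 629, 666 and 1543 in RA-Ag1.3 cultures and 883, 989 and 1972 in RA cultures. These sums too were lower with Ag1.3 within each pair. Krt18 alone gave 804 of 1543 in RA-Ag1.3 replicate 3, and 4 of the 8 endoderm values were above 0 with Ag1.3 and 4 below. Afp was not highest in pair 3 in either group, nor was Gata4 in RA cultures. The part of these cell types in the levels of Slc2a3, Pdk1, Pfkp and P4ha2 was not tested.

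**Figure D4:**
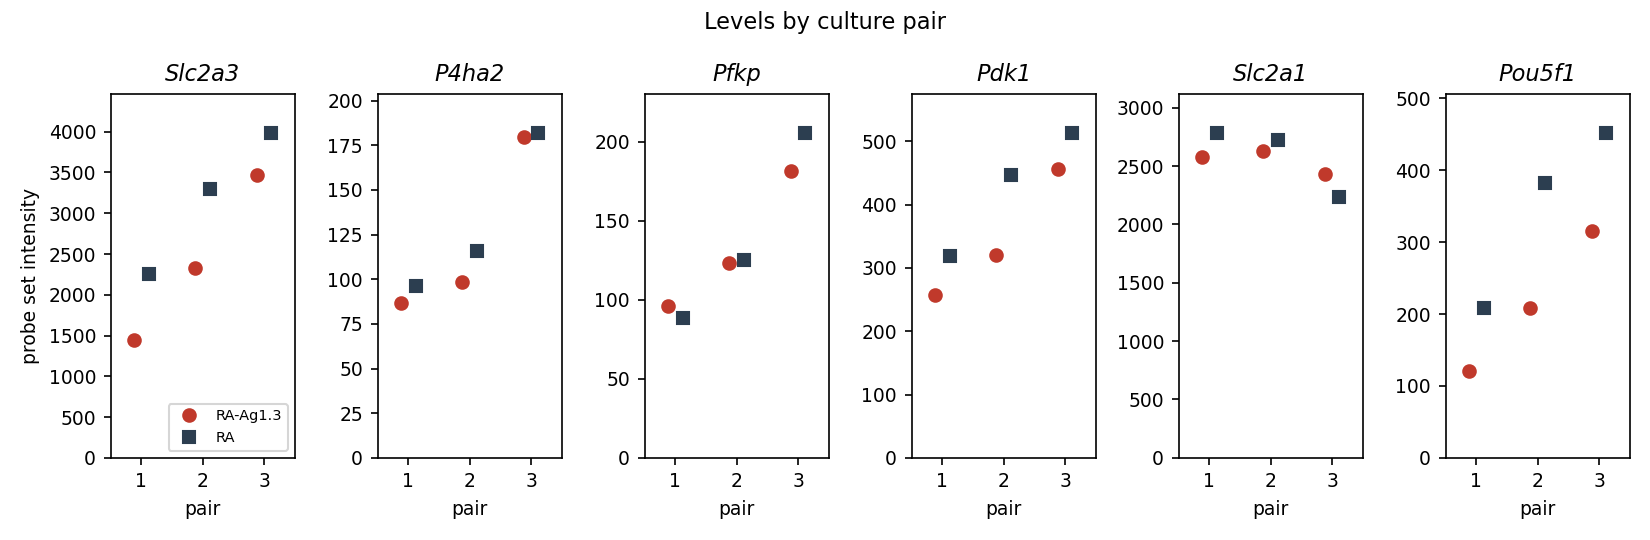
Probe set intensity (linear axis from 0) by culture pair for 5 members and the pluripotency marker Pou5f1, with RA-Ag1.3 arrays as red circles left of the RA arrays as dark squares. Slc2a3, P4ha2, Pfkp and Pdk1 are highest in pair 3 within each group, as is Pou5f1, while Slc2a1 is not.

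Neuron markers moved with the treatment. Of 8 markers 7 rose, against 1.07% of all genes, with a median log2 fold change of 1.06. The summed intensity of the 8 was 6536, 5457 and 4527 in RA-Ag1.3 cultures, against 2557, 2251 and 1512 in RA cultures. Aldoc, known from brain, and Eno2, known from neurons, had log2 fold changes of 0.35 and 0.17, and Slc2a3, also known from neurons, had -0.45. Aldoc and Eno2 each read lowest in pair 1 within each group, where the neuron marker sums were highest. Neural progenitor markers, of which 0 of 7 passed in limma's test (3 at an unadjusted p under 0.05), summed to 7590, 6944 and 6758 in RA-Ag1.3 cultures, against 7863, 6954 and 5855 in RA cultures. The part of the neuron content in the values of Slc16a3, Aldoc, Vegfa, Bnip3 and Vldlr was not tested.

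Neighbouring genes of the same pathways were counted in lists of their own. For comparison, 1.07% of all genes rose and 0.313% fell. At an unadjusted limma p under 0.05, 7.24% of all genes were higher and 7.68% lower. Of 14 further glycolysis genes 0 passed in limma's test (1 at an unadjusted p under 0.05), with a median log2 fold change of -0.04. The 2 with the lowest p were Eno3, the enolase of muscle, at -0.25 (adjusted p = 0.319), and Slc16a1, the MCT1 lactate carrier, at -0.18 (adjusted p = 0.336). Slc16a1 read 628, 559.8 and 639 in RA-Ag1.3 cultures, against 712, 653 and 713 in RA cultures, below its partner in each pair, where Slc16a3 was above it.

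Of 10 regulators of oxygen sensing 0 passed (3 at an unadjusted limma p under 0.05), with a median of -0.03. Epas1, which encodes HIF-2 alpha, read 43.1, 56.0 and 212 in RA-Ag1.3 cultures, against 66.5, 78.2 and 269 in RA cultures. Pair 3 was the highest by far (F-test between pairs, adjusted p = 0.0253), and within each pair the RA-Ag1.3 array was lower, giving a log2 fold change of -0.40 (adjusted p = 0.0915). Cul2, a scaffold of the VHL ubiquitin ligase that marks HIF alpha subunits for destruction, had -0.22 (adjusted p = 0.261).

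Of 20 further hypoxia-inducible genes 1 rose, with 4 at an unadjusted limma p under 0.05 (3 higher, 1 lower) and a median of 0.05. Vldlr, a lipoprotein receptor that also receives the neuronal guidance signal reelin, read 420.3, 203 and 239 in RA-Ag1.3 cultures, against 85.4, 65.0 and 58.8 in RA cultures. Every RA-Ag1.3 array was above every RA array, with a log2 fold change of 1.77 (SE 0.14, 95% CI 1.43 to 2.11, adjusted p = 0.0104). The count in this list was 0 without pair 3 and 0 without the replicate block (4 and 2 at an unadjusted limma p under 0.05). Ak4, a mitochondrial adenylate kinase, had -0.36 and did not pass (adjusted p = 0.163). Mxi1 and Higd1a had 0.24 and 0.19 and did not pass either (adjusted p = 0.28 and 0.319).

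Of 25 genes of the pyruvate dehydrogenase complex and the citric acid cycle 0 passed (3 at an unadjusted limma p under 0.05), with a median of -0.01. The lowest p values belonged to opposing regulators of the complex. Pdp1, the phosphatase that switches it on, read 104, 92.9 and 87.1 in RA-Ag1.3 cultures, against 77.0, 67.7 and 60.6 in RA cultures, with no overlap (log2 fold change 0.39, adjusted p = 0.0859). Pdk3, a kinase that switches it off as Pdk1 does, read 321, 303 and 347 in RA-Ag1.3 cultures, against 416, 378 and 444 in RA cultures, again with no overlap (log2 fold change -0.33, adjusted p = 0.118).

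**Figure D5:**
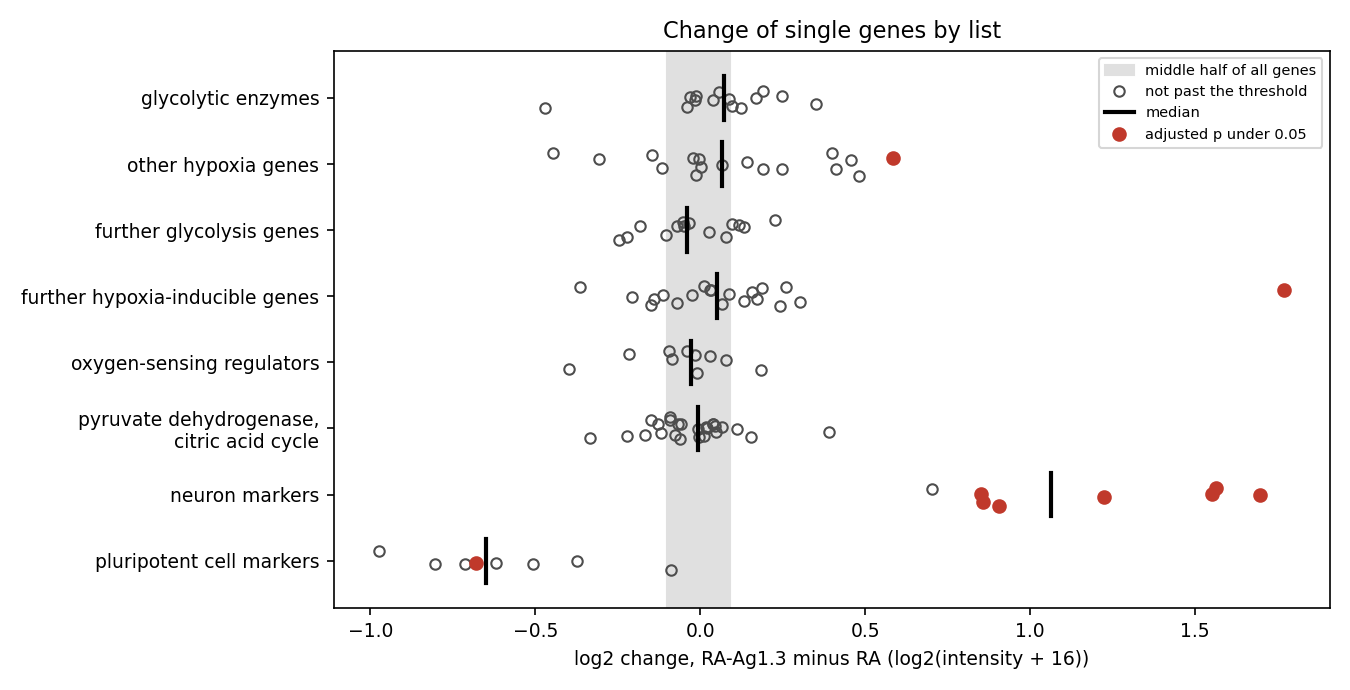
Log2 change, RA-Ag1.3 minus RA, of each tested gene by list, with the median of a list as a black bar, genes at an adjusted p under 0.05 as filled red circles and the interquartile range of all genes as a grey band from -0.10 to 0.09. Slc16a3 is the filled circle among the other hypoxia genes and Vldlr the one at 1.77, and the medians of the gene lists plotted lie between -0.04 and 0.07, with the plotted neuron markers at 1.06 and the pluripotent cell markers at -0.65.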

How the data were processed

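The authors deposited linear probe set intensity values of Affymetrix mouse whole-genome arrays, 1 per sample. The sources used here do not give how probes were summarised or arrays scaled. Of 45101 probe sets, 64 controls were left out, and 34945 of the other 45037 had 1 symbol in the platform annotation. For each of 18193 genes the probe set with the highest mean was used. Values were taken as log2(intensity + 16) and fitted in limma 3.58.1 (R 4.3.3, lmFit and eBayes) with treatment and replicate number as terms, two-sided, with Benjamini-Hochberg adjustment over all genes and a threshold of 0.05. The same fit gave the F-test between pairs. The pairing comes from the series' design text, and deviations from group means correlated at 0.54, 0.19 and 0.56 for arrays of the same number, against -0.51 to 0.07 for others. No arrays were duplicates. Precision is limited by the number of arrays. The fit was tested on simulated data, with planted changes larger than that of any member tested.

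The members and lists were chosen with earlier results of these data known. Members past the threshold or at an unadjusted p under 0.05 were given full statistics, as were the 3 with the lowest p between pairs. From each further list the genes past the threshold were named, or else the 2 with the lowest p. Ak4, Mxi1, Higd1a, the marker genes and the further probe sets named were chosen after their values were seen. There were 12 alternatives, covering pseudocounts of 1 and 64, a filter on low values, no block, each pair left out, the mean of probe sets, moderation that follows intensity, and 3 scalings, and for the medians another grouping of members.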

Additional observations from a re-analysis of the deposited data

How the results depend on the processing

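Under the 12 alternatives and the other grouping of members, 96 of 157 summary values stayed within 1.5 times the reported count or, for medians, within 1 SD of the 3 pairs, and 61 moved further. The difference of medians changed sign within that SD, to -0.013 without pair 3 and -0.048 with the other grouping. For single members 327 values kept direction and side of the threshold, 5 lost and 17 gained a call, and 20 turned sign. The cause of each move was not tested unless named. Dim probe sets such as that of Adm lie near background. Replicate numbers mark parallel cultures, and the fit without the replicate block called 86 genes (78 higher, 8 lower), 0 members (5 at an unadjusted limma p under 0.05), 0 other hypoxia genes and 0 further hypoxia-inducible genes, and left the counts of enzymes, further glycolysis genes, oxygen-sensing regulators and the citric acid cycle list at 0. The marker lists were not refitted under the alternatives.

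Over all genes, 252 changed in the reported fit, against 0 with a pseudocount of 1 (2411 at an unadjusted limma p under 0.05), 831 with 64, 950 of 11441 genes with the filter, 35 to 62 with a pair left out, 891 with moderation that follows intensity and 1686 with equal spikes. The genes that differed between pairs were 424, against 0, 1488, 1611, 0 to 456, 1630 and 1459 under those alternatives in that order. Between pairs, the count of 0 with a pseudocount of 1 stands beside 2991 genes at an unadjusted limma p under 0.05, and the counts of 0 without pair 1 or 3 beside 2308 and 2270. With a pseudocount of 1, 0 members changed with Ag1.3 (8 at an unadjusted limma p under 0.05) and 0 differed between pairs (6 at that level), 0 other hypoxia genes changed (6) and 0 further hypoxia-inducible genes did (2). With 64, the counts were 5 members, 2 enzymes, 3 other hypoxia genes, 1 regulator of oxygen sensing, 2 further hypoxia-inducible genes and 2 genes of the pyruvate dehydrogenase complex and citric acid cycle. With the filter, they were 6 of 28 members, 2 enzymes, 4 other hypoxia genes, 1 regulator, 2 further hypoxia-inducible genes and 2 of the citric acid cycle list. With moderation that follows intensity, they were 5 members (5 between pairs), 1 enzyme, 4 other hypoxia genes, 2 further hypoxia-inducible genes and 1 of the citric acid cycle list. With equal spikes, they were 4 members, 1 enzyme, 3 other hypoxia genes, 2 further glycolysis genes, 2 regulators, 2 further hypoxia-inducible genes and 2 of the citric acid cycle list. The mean of all probe sets gave 2 members, both other hypoxia genes. With any pair left out 0 members passed in limma's test (5 to 10 at an unadjusted p under 0.05), 0 to 1 further hypoxia-inducible genes changed, and 0 to 4 members differed between pairs.

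Equal spikes lowered all RA-Ag1.3 values by construction and gave medians of -0.11 for enzymes and -0.12 for the other hypoxia genes. They also gave log2 fold changes of -0.057 for Hk1, -0.15 for Hk2, -0.089 for Pfkl, -0.12 for Pfkm, -0.10 for Pgk1, -0.16 for Egln3, -0.00081 for Ndrg1 and -0.12 for Hif1a. The mean of all probe sets put Egln1 at 0.0030. With a pair left out, log2 fold changes spanned 0 for 9 members, running over -0.062 to 0.16 for Hk2, -0.015 to 0.094 for Pfkm, -0.094 to 0.038 for Pfkp, -0.025 to 0.0093 for Pkm, -0.081 to 0.034 for Slc2a1, -0.059 to 0.044 for Egln1, -0.12 to 0.12 for Egln3, -0.069 to 0.050 for Car9 and -0.015 to 0.23 for Ndrg1.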

Other observations

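The receptors for Vegfa and other markers of endothelium and blood gave further values. Kdr, the main VEGF receptor, read 107, 105 and 84.1 in RA-Ag1.3 cultures, against 60.6, 50.5 and 73.6 in RA cultures, with every RA-Ag1.3 array above every RA array and a log2 fold change of 0.57 (SE 0.15, 95% CI 0.20 to 0.93, adjusted p = 0.164 in limma's test). Flt1, another VEGF receptor, read 20.1, 20.8 and 29.6 in RA-Ag1.3 cultures, against 19.6, 22.6 and 22.6 in RA cultures, near the range of the unspiked controls. Of 8 endothelium and blood markers 0 passed the threshold. Kdr and Pecam1, the second at -0.37, were the 2 of them with an unadjusted limma p under 0.05. At that level 7.24% of all genes were higher and 7.68% lower. The summed intensity of the 8 markers was 364, 413 and 387 in RA-Ag1.3 cultures, against 309, 367 and 415 in RA cultures, and the blood genes Hba-a1 and Hbb-y were at or below the highest Trp control on all 6 arrays.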
